A study of Mus musculus with 14 samples.

Results

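Interferon response genes are the genes that cells switch on when interferons bind their receptors, and 40 of them, chosen by symbol from a fixed list, were followed through the uterine estrous cycle of WT and HIF2A cKO mice. All 40 were among the 31274 gene symbols of the deposited expression table. The tissue was whole uterus from intact, untreated FVB/N mice aged 2 months, taken at estrus or diestrus and profiled by RNA-seq of total RNA. The groups were HIF2A cKO at estrus (3 libraries), WT at estrus (3 libraries), HIF2A cKO at diestrus (4 libraries) and WT at diestrus (4 libraries). HIF2A is the protein made by Epas1, an oxygen-regulated transcription factor, and the labels name neither the Cre line nor the deleted part of the gene, so the cells that carry the deletion are not known here. Values are FPKM, fragments mapped to a gene per kilobase of its transcript, scaled to the fragments of the library. The labels do not say that numbered replicates were separate animals, so the p-values measure the spread between these libraries, which may be technical.

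As background, type I interferons signal through a complex that holds STAT2 and IRF9 and binds a promoter element called the ISRE, and interferon gamma acts through another element, called GAS. The induced genes sense foreign RNA and DNA, cut or trap viral material, attach the ubiquitin-like protein ISG15 to other proteins, or build GTPase coats around intracellular microbes. In the female reproductive tract the epithelium makes its own interferon, interferon epsilon, whose gene Ifne is known to follow the hormonal cycle rather than infection.

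The promoters of the members show how these 2 elements are laid out. RefSeq promoter windows of the GRCm38.p6 build, from 250 bases before to 50 bases after a gene's start, were found for 29 of the 40 members and were searched on both strands for the ISRE core GAAA, any 2 bases, GAAA (TTTC, any 2 bases, TTTC on the other strand) and for the GAS letters TTCNNNGAA. An ISRE match lay in 16 of the 29 windows (55.2%), against 3.99% of the windows of 27025 genes. A GAS match lay in 6 of the 29 (20.7%), against 9.55% of all genes. The windows shown here, 5′ to 3′ on the gene's own strand, have their ISRE matches in capitals, or in Irf1 its GAS match. They are of Isg15, the IFIT genes Ifit1 and Ifit3, the near-identical Oas1 pair and Bst2, whose values are described below, and of Irf1 as the GAS example. The Bst2 window also holds a GAS match, which is left in lower case where it does not run into the ISRE block. Neighbouring matches overlap in Isg15, the Oas1 pair and Bst2, where they run together into 1 block of capitals. They come from chr4:156200845-156200926 (minus strand), chr19:34640765-34640833 (plus), chr19:34583353-34583436 (plus), chr5:120907527-120907605 (minus), chr5:120887614-120887691 (minus), chr8:71537557-71537632 (minus) and chr11:53769894-53769962 (plus), in the order printed.
Isg15: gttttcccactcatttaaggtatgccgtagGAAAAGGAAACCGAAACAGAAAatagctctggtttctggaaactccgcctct
Ifit1: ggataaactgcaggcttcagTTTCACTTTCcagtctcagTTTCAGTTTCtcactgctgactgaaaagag
Ifit3: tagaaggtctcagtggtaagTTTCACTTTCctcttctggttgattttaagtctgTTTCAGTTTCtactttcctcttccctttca
Oas1a: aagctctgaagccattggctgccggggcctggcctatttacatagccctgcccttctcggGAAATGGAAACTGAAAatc
Oas1g: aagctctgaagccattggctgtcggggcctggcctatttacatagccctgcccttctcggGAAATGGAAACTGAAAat
Bst2: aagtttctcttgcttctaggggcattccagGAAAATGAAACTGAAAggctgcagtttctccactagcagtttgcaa
Irf1: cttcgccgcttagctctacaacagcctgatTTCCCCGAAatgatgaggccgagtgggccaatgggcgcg
Isg15 held 3 overlapping ISRE matches, and Ifit1, Ifit3, Oas1a, Oas1g and Bst2 held 2 each. The Ifit2 window, not printed, held a GAS match and no match to the ISRE letters. The Oas1a and Oas1g windows were identical at 77 of 78 bases compared. A match describes the letters in a window and is not evidence of binding. Over the cycle, the median difference of estrus minus diestrus was 1.01 log2 for the 16 with a match and 1.07 log2 for the 13 without in HIF2A cKO, and 0.44 and 0.59 log2 in WT.

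Most members were present at low to moderate levels in every group. Averaged over the 14 libraries, 14 members lay under 5 FPKM, 19 between 5 and 20 FPKM, 6 between 20 and 100 FPKM, and 1, Bst2, above 100 FPKM at 168 FPKM. Lgals3bp, a secreted glycoprotein that binds galectins, followed at 74.4 FPKM and Ifi27, a small mitochondrial protein, at 62.5 FPKM. The lowest were Mx1 at 1.66 FPKM, Oas1g at 1.46 FPKM and Oas3 at 1.42 FPKM. All 40 passed the filter on low values of 1 FPKM in at least 3 libraries, but 4 of them (Oas1g, Oas3, Ifit3 and Mx1) passed it only through estrus libraries, so a cycle difference of these 4 was partly built into the filter. Summed FPKM of the 40 members was 932 ± 198 in HIF2A cKO estrus, 689 ± 78.9 in WT estrus, 564 ± 42.4 in HIF2A cKO diestrus and 504 ± 79.1 in WT diestrus (SD, n = 3, 3, 4 and 4). Bst2 alone averaged 198, 123, 233 and 115 FPKM in the same order, so the sums do not give the direction of most members. At diestrus 31 of the 40 had a negative difference of HIF2A cKO minus WT.

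FPKM totals ran from 437879 to 497688 per library, and the step size of low values put the deepest library at 1.89 times the shallowest; no counts were used here. The diestrus libraries numbered 3, of both genotypes, stood apart with high natural killer and endothelial transcripts. Their epithelial marker sums were also the lowest of their groups (409 FPKM in HIF2A cKO and 342 FPKM in WT). Their stromal sums were the highest (2678 and 2828 FPKM). Among endothelial genes Cdh5 was at 2.28 and 2.32 times the median of the other libraries of its group, and Kdr at 0.91 and 1.40 times. Counts without these libraries are given below. Epas1 itself did not mark the genotype: it was 45.7, 39.9 and 38.0 FPKM in HIF2A cKO estrus against 34.2, 31.2 and 33.3 FPKM in WT estrus, and 37.3, 35.1, 45.4 and 40.1 FPKM in HIF2A cKO diestrus against 31.9, 32.7, 43.5 and 31.2 FPKM in WT diestrus. The HIF2A cKO estrus libraries were all above the WT estrus libraries and the diestrus groups overlapped, with no difference past the threshold (limma adjusted p = 0.605 at estrus and 0.227 at diestrus). It was past the threshold, higher in HIF2A cKO, at diestrus without WT diestrus replicate 3 (0.29 log2, limma adjusted p = 0.039) and at estrus with library weights (0.36 log2, limma adjusted p = 0.013). Every direction between genotypes below therefore rests on the labels. Epithelial, stromal and smooth muscle markers were present in all 14 libraries, as a whole uterus has them.

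**Figure D1:**
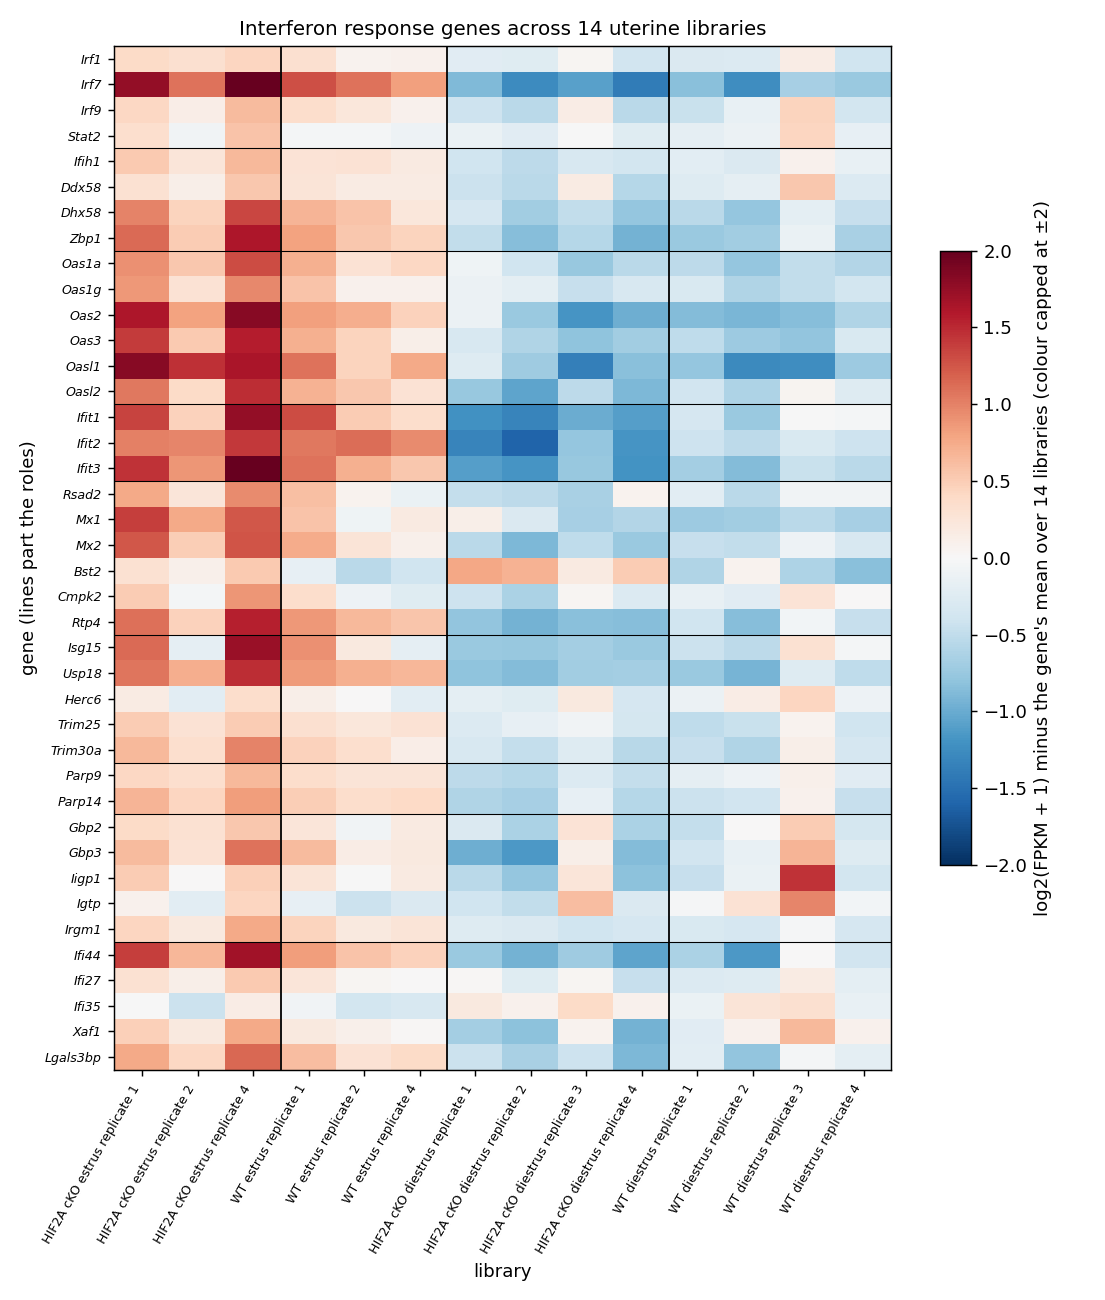
Each column is 1 library and each row 1 member; colour gives log2(FPKM + 1) minus that gene's mean over the 14 libraries, with red above and blue below the mean and the scale capped at 2 either way. Thick vertical lines part the 4 groups and thin horizontal lines part the roles. Estrus columns are mostly red and diestrus columns mostly blue, Bst2 is red in HIF2A cKO at both stages, and 4 GTPase rows (Gbp2, Gbp3, Iigp1 and Igtp) are red in the 2 diestrus columns numbered 3, while the Irgm1 row lies below its mean there.

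Most members were higher at estrus than at diestrus in both genotypes. In HIF2A cKO uteri 35 of 40 members were higher at estrus and none was lower, where 25.5% of all 14278 genes tested were higher and 36.5% lower. In WT uteri 25 of 40 were higher and none lower, where 23% of all genes were higher and 34.1% lower. Oas1g, Oas3, Ifit3 and Mx1, which passed the filter only through estrus libraries, are counted as higher in both genotypes. The median difference of the members was 1.10 log2 in HIF2A cKO and 0.61 log2 in WT, against -0.08 and -0.09 log2 over all genes. Calls are limma tests on log2(FPKM + 1) with Benjamini-Hochberg adjustment over all genes, at an adjusted p under 0.05; adding 1 FPKM shrinks the differences of low genes. The 25 members called in WT were all among the 35 called in HIF2A cKO. Whole tissue was measured, so fewer cells of a type and less RNA per cell cannot be told apart.

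Of the transcription factors, Irf7, which drives the later wave of interferon genes, changed most. It was 35.4, 21.7 and 44.4 FPKM in HIF2A cKO estrus, against 4.79, 3.48, 4.05 and 3.06 FPKM in HIF2A cKO diestrus. In WT it was 25.2, 21.8 and 17.9 FPKM at estrus, against 5.01, 3.52, 5.77 and 5.39 FPKM at diestrus. Every estrus library of either genotype lay above every diestrus library. Mean FPKM was 8.81 times higher at estrus in HIF2A cKO and 4.39 times higher in WT.

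Irf1, a factor that answers interferon gamma, moved less. It was 41.1, 39.6 and 42.5 FPKM in HIF2A cKO estrus and 39.4, 33.1 and 33.5 FPKM in WT estrus. At diestrus it was 26.8, 26.5, 32.4 and 23.8 FPKM in HIF2A cKO and 25.4, 25.9, 34.7 and 23.5 FPKM in WT. The HIF2A cKO stages did not overlap (0.58 log2, limma adjusted p = 0.0015), while the WT stages overlapped through diestrus library 3 (0.37 log2, limma adjusted p = 0.024). The WT call ended without WT estrus replicate 1 and without WT diestrus replicates 1, 2 or 4 (limma adjusted p up to 0.105).

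Irf9 and Stat2, whose proteins join in the complex that binds the ISRE, passed the threshold over the cycle in HIF2A cKO and not in WT. Irf9 was 22.9, 18.7 and 26.8 FPKM in HIF2A cKO estrus against 12.5, 11.4, 18.9 and 11.3 FPKM in HIF2A cKO diestrus (0.73 log2, limma adjusted p = 0.010), and 21.8, 19.9 and 18.0 FPKM in WT estrus against 12.2, 15.2, 23.4 and 12.9 FPKM in WT diestrus (0.34 log2, limma adjusted p = 0.191). Stat2 was 11.6, 8.48 and 13.7 FPKM in HIF2A cKO estrus against 8.06, 7.52, 8.92 and 7.36 FPKM in HIF2A cKO diestrus (0.43 log2, limma adjusted p = 0.030), and 8.63, 8.62 and 8.24 FPKM in WT estrus against 7.76, 8.16, 12.3 and 7.87 FPKM in WT diestrus (-0.06 log2, limma adjusted p = 0.780). For both genes diestrus library 3 was the highest of its group in each genotype, and the stages overlapped in both genotypes. In HIF2A cKO the Irf9 call ended without estrus replicate 4 (limma adjusted p up to 0.069), and the Stat2 call without estrus replicates 1 or 4 and without diestrus replicates 2 or 4 (up to 0.157). The WT difference of Irf9 passed without both diestrus libraries numbered 3 (0.53 log2, limma adjusted p = 0.0030) and with the replicate block (0.52 log2, limma adjusted p = 0.0046). The genotype difference in these cycle changes did not pass (limma adjusted p = 0.528 for Irf9 and 0.282 for Stat2).

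The 2-5A synthetase family, whose enzymes make the short oligoadenylates that switch on RNase L, was higher at estrus in 6 of 6 members in both genotypes, with a median of 1.78 log2 in HIF2A cKO and 1.04 log2 in WT. Oas1g and Oas3, counted here, passed the filter only through estrus libraries, so their rise was partly built in. Oasl1, known in mice to hold back translation of Irf7, was 14.6, 11.2 and 12.8 FPKM in HIF2A cKO estrus against 2.71, 1.71, 0.720 and 1.48 FPKM in HIF2A cKO diestrus. In WT it was 8.40, 5.03 and 6.49 FPKM at estrus against 1.60, 0.838, 0.884 and 1.68 FPKM at diestrus. Oas2 was 15.4, 8.32 and 18.0 FPKM in HIF2A cKO estrus against 3.92, 2.20, 1.37 and 1.73 FPKM in HIF2A cKO diestrus, and 8.47, 7.89 and 6.40 FPKM in WT estrus against 1.92, 1.83, 1.96 and 2.52 FPKM in WT diestrus. For both genes the stages did not overlap in either genotype. Oasl2 rose by 1.78 and 0.81 log2, Oas3 by 1.77 and 1.01, Oas1a by 1.36 and 1.06, and Oas1g by 0.98 and 0.69 log2 (HIF2A cKO and WT). Of all 50-base stretches in Oas1a transcripts 57.6% also lie in other genes, chiefly Oas1g, and 45.7% of those of Oas1g chiefly in Oas1a, so reads of this pair may have been split between them.

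The IFIT proteins, which bind viral RNA ends and block its translation, rose in 3 of 3 members in both genotypes, by a median of 2.36 log2 in HIF2A cKO and 1.41 log2 in WT. Of these, Ifit3 passed the filter only through estrus libraries. Ifit2 was 13.6, 13.3 and 18.3 FPKM in HIF2A cKO estrus and 14.1, 14.6 and 12.8 FPKM in WT estrus. At diestrus it was 1.89, 1.39, 3.21 and 2.18 FPKM in HIF2A cKO and 4.43, 4.01, 4.87 and 4.41 FPKM in WT. Thus the genotypes shared a similar Ifit2 range at estrus, and at diestrus every HIF2A cKO library lay below every WT library.

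Ifit1 was 9.44, 4.62 and 12.7 FPKM in HIF2A cKO estrus and 9.10, 4.81 and 4.20 FPKM in WT estrus, and 0.750, 0.638, 1.05 and 0.895 FPKM in HIF2A cKO diestrus and 2.23, 1.42, 3.05 and 2.94 FPKM in WT diestrus. Its rise was 2.35 log2 in HIF2A cKO (limma adjusted p = 2.1e-05) and 1.01 log2 in WT (limma adjusted p = 0.011), and the WT call ended without WT estrus replicate 1 (limma adjusted p = 0.064). Ifit3 was 7.69, 4.85 and 12.6 FPKM in HIF2A cKO estrus and 5.72, 4.20 and 3.64 FPKM in WT estrus, and 0.476, 0.400, 0.889 and 0.386 FPKM in HIF2A cKO diestrus and 0.980, 0.741, 1.34 and 1.19 FPKM in WT diestrus. For both genes the stages did not overlap in either genotype. Ifit3 shares 51.2% of its 50-base stretches with other genes, chiefly its copy Ifit3b, and Ifit1 shares 7.14%, chiefly with Ifit1bl2.

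**Figure D2:**
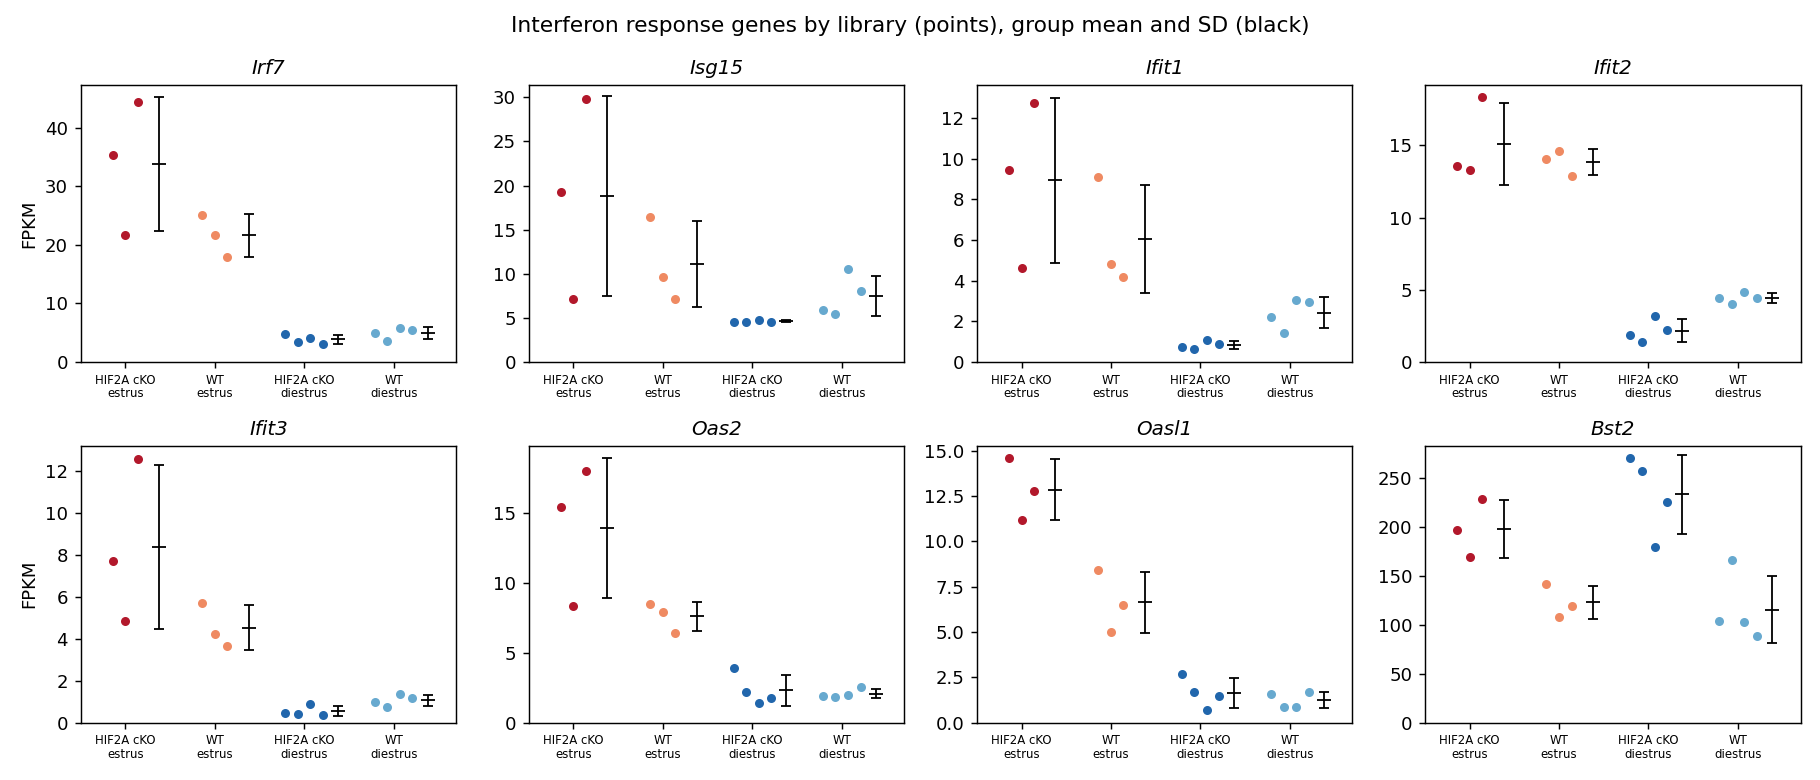
Points are FPKM of single libraries of 8 members, with HIF2A cKO estrus, WT estrus, HIF2A cKO diestrus and WT diestrus from left to right, and black bars give the group mean and SD (n = 3, 3, 4 and 4). The y axis is FPKM from 0 on a scale of its own in each panel. Irf7, the IFIT genes, Oas2 and Oasl1 are high at estrus in both genotypes, Isg15 spreads widely at estrus, and Bst2 is high in HIF2A cKO at both stages.

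Among the other antiviral effectors, 5 of 6 were higher at estrus in HIF2A cKO and 3 of 6 in WT. Both counts hold Mx1, which passed the filter only through estrus libraries. Mx1 and Mx2, dynamin-like GTPases, rose by 1.48 and 1.66 log2 in HIF2A cKO and by 0.88 and 0.71 log2 in WT, the WT call of Mx2 ending without WT estrus replicate 1 (limma adjusted p = 0.056). Rtp4, a receptor transporter protein, rose by 1.89 log2 in HIF2A cKO and 1.13 log2 in WT. Rsad2, which makes a chain-ending nucleotide, differed by 1.04 log2 in HIF2A cKO (limma adjusted p = 0.0013) and 0.41 log2 in WT (limma adjusted p = 0.135). Cmpk2, its neighbouring mitochondrial nucleotide kinase, differed by 0.77 log2 in HIF2A cKO (limma adjusted p = 0.0088) and 0.02 log2 in WT (limma adjusted p = 0.941), and the HIF2A cKO call ended without estrus replicate 4 (limma adjusted p = 0.055).

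Bst2, also called tetherin, which ties budding virus to the cell surface, was the most abundant member and did not follow the cycle in either genotype. It was 197, 169 and 228 FPKM in HIF2A cKO estrus and 141, 108 and 119 FPKM in WT estrus. At diestrus it was 269.7, 257, 179.6 and 226 FPKM in HIF2A cKO and 104, 166, 103 and 88.6 FPKM in WT. The stages overlapped within each genotype (-0.23 log2 in HIF2A cKO, limma adjusted p = 0.342, and 0.12 log2 in WT, 0.617).

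In the ISG15 system 4 of 5 members were higher at estrus in HIF2A cKO and 3 of 5 in WT. Isg15 was 19.3, 7.18 and 29.9 FPKM in HIF2A cKO estrus against 4.58, 4.52, 4.78 and 4.53 FPKM in HIF2A cKO diestrus, and 16.5, 9.66 and 7.17 FPKM in WT estrus against 5.90, 5.46, 10.5 and 8.03 FPKM in WT diestrus. The 4 HIF2A cKO diestrus libraries, from 4.52 to 4.78 FPKM, lay below every other library, and the WT stages overlapped. The cycle difference was 1.62 log2 in HIF2A cKO (limma adjusted p = 0.0022) and 0.48 log2 in WT (limma adjusted p = 0.290).

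Usp18, the protease that strips ISG15 from proteins and damps receptor signalling, was 9.36, 7.14 and 12.7 FPKM in HIF2A cKO estrus against 1.82, 1.71, 2.05 and 2.07 FPKM in HIF2A cKO diestrus, and 7.86, 7.05 and 6.83 FPKM in WT estrus against 1.94, 1.57, 3.12 and 2.47 FPKM in WT diestrus. Its stages did not overlap in either genotype (1.85 and 1.35 log2 in HIF2A cKO and WT). The ubiquitin ligases Trim25, which activates the RNA sensor Ddx58, and Trim30a rose by 0.65 and 1.06 log2 in HIF2A cKO and by 0.59 and 0.63 log2 in WT. Trim25 was 21.2 FPKM in WT diestrus replicate 3, and without both libraries numbered 3 its differences were 0.70 and 0.72 log2. Herc6, the main ISG15 ligase of mice, differed by 0.25 log2 in HIF2A cKO (limma adjusted p = 0.230) and -0.12 log2 in WT (limma adjusted p = 0.584).

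The sensors rose in 4 of 4 cases in HIF2A cKO and 3 of 4 in WT. Zbp1, a sensor of left-handed nucleic acids, rose by 1.80 and 1.15 log2 in HIF2A cKO and WT, and Dhx58, a helicase that tunes the other RNA sensors, by 1.50 and 0.98 log2. Zbp1 was 4.37 FPKM in WT diestrus replicate 3, against 2.52, 2.62 and 2.76 FPKM in the other WT diestrus libraries (1.85 and 1.29 log2 without both libraries numbered 3). Ifih1, a sensor of long double-stranded RNA, rose by 0.88 and 0.39 log2. Ddx58, a sensor of RNA ends, differed by 0.67 log2 in HIF2A cKO (limma adjusted p = 0.013), a call that ended without HIF2A cKO estrus replicate 4 (limma adjusted p up to 0.075), and by 0.23 log2 in WT (limma adjusted p = 0.356). Its diestrus libraries numbered 3 held 12.6 FPKM in HIF2A cKO and 16.6 FPKM in WT, and without both it rose in WT as well (0.42 log2, limma adjusted p = 0.0024).

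The PARP proteins Parp9 and Parp14, which attach ADP-ribose, rose in 2 of 2 cases in both genotypes, by 0.92 and 1.14 log2 in HIF2A cKO and by 0.39 and 0.71 log2 in WT. Parp9 was 20.2, 19.1 and 24.0 FPKM in HIF2A cKO estrus and 19.4, 18.0 and 18.1 FPKM in WT estrus, with its diestrus values given below. Parp14 was 11.6 FPKM in WT diestrus replicate 3, and without both libraries numbered 3 its differences were 1.25 and 0.84 log2. Among the other induced genes 4 of 5 were higher at estrus in HIF2A cKO and 2 of 5 in WT. Ifi44 rose by 2.11 and 1.16 log2 and Lgals3bp by 1.38 and 0.74 log2 in HIF2A cKO and WT. Ifi27 differed by 0.48 log2 in HIF2A cKO (limma adjusted p = 0.012), a call that ended without HIF2A cKO estrus replicate 4 (up to 0.068), and by 0.23 log2 in WT (limma adjusted p = 0.184). Ifi35 had lower means at estrus, with differences of -0.29 and -0.33 log2 that did not pass (limma adjusted p = 0.119 and 0.086). Xaf1, a promoter of cell death, was 16.9, 13.7 and 20.6 FPKM in HIF2A cKO estrus against 6.99, 6.28, 12.5 and 5.68 FPKM in HIF2A cKO diestrus (1.07 log2, limma adjusted p = 0.0017), and 13.7, 12.7 and 12.1 FPKM in WT estrus against 9.99, 12.7, 19.1 and 12.5 FPKM in WT diestrus (-0.04 log2, limma adjusted p = 0.892).

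The interferon-inducible GTPases, which coat the vacuoles of intracellular microbes and answer interferon gamma strongly, were higher at estrus in 3 of 5 members in HIF2A cKO and 1 of 5 in WT. Without both diestrus libraries numbered 3 the counts were 5 of 5 in HIF2A cKO and 4 of 5 in WT, and with the replicate block 5 of 5 and 3 of 5. Those libraries held the highest diestrus values of Gbp2, Gbp3, Iigp1 and Igtp in each genotype, so leaving them out raises these differences by construction. Irgm1 rose by 0.78 and 0.55 log2 in HIF2A cKO and WT, with 21.2 FPKM in WT diestrus replicate 3 (0.76 and 0.63 log2 without both libraries). Gbp3 differed by 1.39 and 0.35 log2 (limma adjusted p = 0.0020 and 0.359) and Gbp2 by 0.73 and 0.20 log2 (0.018 and 0.496), the HIF2A cKO call of Gbp2 ending without estrus replicate 4 and without diestrus replicates 2 or 4 (up to 0.095). Iigp1 differed by 0.80 and 0.02 log2 (0.093 and 0.964) and Igtp by 0.24 and -0.59 log2 (0.480 and 0.092). Igtp was the 1 member whose WT estrus libraries all lay below its WT diestrus libraries, at 7.58, 6.17 and 6.92 FPKM against 8.46, 10.8, 17.9 and 8.29 FPKM. Igtp shares 11.8% of its 50-base stretches with other genes, chiefly Irgm2, whose exons overlap it.

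**Figure D3:**
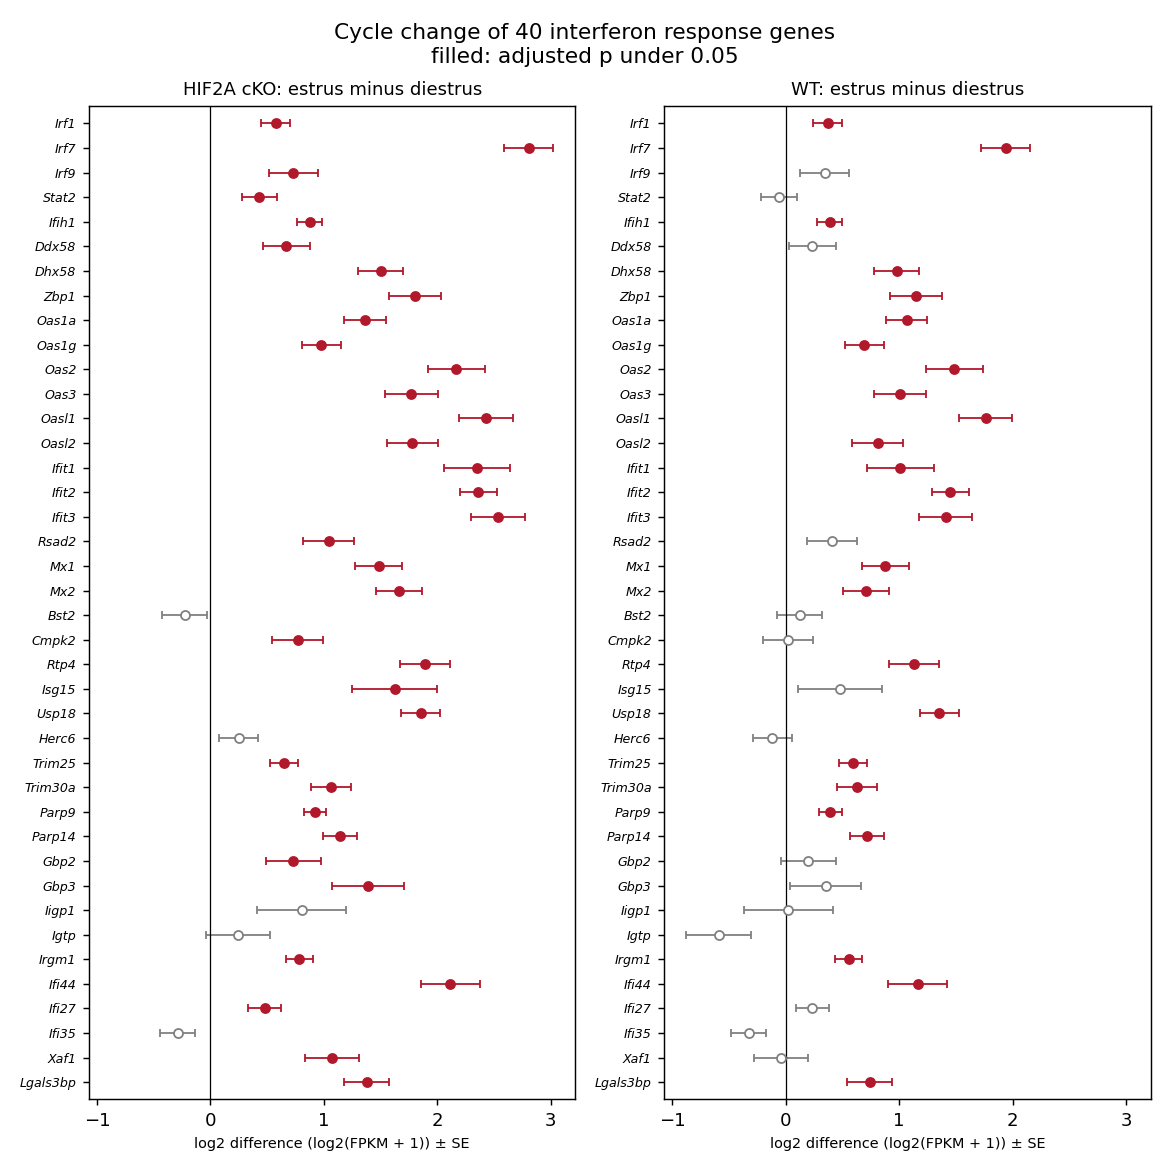
Points give the difference of estrus minus diestrus on the log2(FPKM + 1) scale for each member, with its standard error, in HIF2A cKO (left) and WT (right); filled points passed an adjusted p of 0.05. The HIF2A cKO panel has 35 filled points and the WT panel 25, all to the right of 0, with Irf7 farthest right in both at 2.80 and 1.94 log2.

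The same counts were taken without the libraries that stand apart. At estrus 1 library per genotype ran high throughout: HIF2A cKO estrus replicate 4 was the highest of its group for 37 of 40 members and replicate 2 the lowest for all 40, and WT estrus replicate 1 was the highest for 38 of 40. Without HIF2A cKO estrus replicate 4, 29 members were called higher at estrus in HIF2A cKO, and Ifi35 was called lower (-0.42 log2, limma adjusted p = 0.049). Of all genes 22.9% were higher and 32.9% lower in that fit. Without both diestrus libraries numbered 3 the counts were 38 in HIF2A cKO and 31 in WT, where 28.6% and 25.3% of all genes were higher. This alternative was chosen after seeing the data. The libraries left out were highest of their group for 26 members in HIF2A cKO and 34 in WT, which favours higher calls at estrus. Without the 2 libraries with the most 45S ribosomal precursor signal, HIF2A cKO estrus replicate 1 (819 FPKM) and HIF2A cKO diestrus replicate 4 (1890.5 FPKM), likewise chosen after seeing the data, the counts were 30 and 25. Of all genes 20.6% and 22.8% were higher in that fit. Estrus and diestrus libraries did not overlap for 31 members in HIF2A cKO, all higher (26.1% of all genes higher, 37% lower), and in WT for 24 higher (24.2%) and for 1 lower, Igtp (36.9%).

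Some leukocyte markers moved with the cycle as well. Of 4 tested general leukocyte markers 2 rose at estrus in HIF2A cKO and 1 in WT. Of 5 tested T and natural killer markers 1 rose in HIF2A cKO and none in WT, and none of either list fell. Summed macrophage markers were 240.5 to 286 FPKM in HIF2A cKO estrus, 198 to 242 FPKM in WT estrus, 66.5 to 98.4 FPKM in HIF2A cKO diestrus and 97.8 to 117 FPKM in WT diestrus, and 6 of 7 tested markers rose at estrus in HIF2A cKO and 5 of 7 in WT. Csf1r, the receptor that macrophages need to survive, was 52.9, 54.1 and 61.2 FPKM in HIF2A cKO estrus against 17.0, 16.9, 16.2 and 17.4 FPKM in HIF2A cKO diestrus, and 49.0, 46.3 and 46.5 FPKM in WT estrus against 26.0, 17.1, 18.6 and 26.1 FPKM in WT diestrus. Neutrophil markers summed to 58.0 to 77.9, 76.3 to 107, 31.0 to 37.2 and 27.5 to 46.6 FPKM in HIF2A cKO estrus, WT estrus, HIF2A cKO diestrus and WT diestrus. Of 4 tested neutrophil markers 2 rose and none fell in each genotype, with WT differences from -0.61 to 1.39 log2. Retnlg made up 33.7 of 35.7 FPKM of this sum in HIF2A cKO diestrus replicate 3 and 24.5 of 27.5 FPKM in WT diestrus replicate 3. Epithelial markers also summed higher at estrus, at 1157 to 1289.9 FPKM in HIF2A cKO and 910.2 to 1104 FPKM in WT, than at diestrus, at 409 to 878 FPKM in HIF2A cKO and 342 to 558 FPKM in WT. Of 7 tested stromal markers 5 fell and 1 rose in HIF2A cKO, and 6 fell in WT. Of 6 smooth muscle markers 3 fell and 1 rose in each genotype. Of 5 endothelial markers 2 fell in HIF2A cKO and 3 in WT. The part of these cell types in the members' cycle difference was not tested. Markers of plasmacytoid dendritic cells, the strongest interferon producers of blood, summed to 3.21 to 7.62 FPKM in HIF2A cKO estrus, 2.38 to 2.50 FPKM in WT estrus, 1.47 to 2.39 FPKM in HIF2A cKO diestrus and 1.41 to 2.12 FPKM in WT diestrus. The defining Siglech was at most 1.03 FPKM, Ccr9 0.218 FPKM and Cox6a2 0.307 FPKM in any library, and Klk1, which glands also make, reached 6.47 FPKM.

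Genes up the pathway from the members were read from lists made for this report. Beside the list counts over the cycle, 25.5% of all genes rose and 36.5% fell at estrus in HIF2A cKO, and 23% and 34.1% in WT. Of 10 interferon ligands 1 passed the filter, Ifne, at 10.8, 10.4 and 10.3 FPKM in HIF2A cKO estrus, 7.06, 5.89 and 6.20 FPKM in WT estrus, 2.56, 2.10, 0.496 and 0.839 FPKM in HIF2A cKO diestrus, and 0.404, 0.969, 0.418 and 0.533 FPKM in WT diestrus. Its stages did not overlap in either genotype, and it rose by 2.29 log2 in HIF2A cKO (limma adjusted p = 6.3e-06) and 2.23 log2 in WT (limma adjusted p = 1.3e-05), with the HIF2A cKO libraries all above WT at estrus (0.64 log2, a difference that did not pass). That difference was past the threshold with the compared libraries alone (limma adjusted p = 0.015), with the block on them (0.040) and with library weights (0.0088), and the one at diestrus was past it with the replicate block (0.58 log2, limma adjusted p = 0.037). The listed alpha, beta, kappa, lambda and zeta interferons were at or under 0.071 FPKM in every library. Of 9 tested receptors and kinases 6 rose and none fell in HIF2A cKO, and 6 rose and 1, Jak1, fell in WT, a call that ended without WT estrus replicates 1 or 4 (limma adjusted p up to 0.069). The largest changes were of Ifnlr1, the lambda interferon receptor (1.29 and 1.39 log2 in HIF2A cKO and WT), and Ifngr2, a chain of the gamma receptor (1.22 and 0.92 log2).

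Of 11 further nucleic acid sensors and adaptors 5 rose and 2 fell in HIF2A cKO, and 5 rose and 1 fell in WT; Tlr7, an endosomal RNA sensor, rose by 1.10 and 0.76 log2, Tmem173, the adaptor STING, by 0.92 and 1.47 log2, and Mb21d1, the cytosolic DNA sensor cGAS, fell by 1.01 and 0.91 log2. Of 6 other interferon regulatory factors 2 rose and 1, Irf3, fell in HIF2A cKO, and 1 rose and 1, Irf3, fell in WT; the Irf3 calls of both genotypes ended with median-of-ratios and with quantile scaling (limma adjusted p up to 0.164), and the WT call without WT estrus replicates 2 or 4. Irf2 rose by 0.43 and 0.44 log2, and Irf5 by 0.52 log2 in HIF2A cKO. Of 8 negative regulators 3 rose and 2 fell in HIF2A cKO, and 1 rose and 2 fell in WT. Over all genes 25.5% rose and 36.5% fell in HIF2A cKO, and 23% rose and 34.1% fell in WT, so lists this short are not set apart by these counts. Socs1, a feedback inhibitor of the receptor kinases, ran opposite to the members: it was 3.33, 3.32 and 3.30 FPKM in HIF2A cKO estrus, 4.23, 2.54 and 2.77 FPKM in WT estrus, 16.8, 20.8, 16.5 and 13.6 FPKM in HIF2A cKO diestrus, and 4.81, 6.98, 9.40 and 5.81 FPKM in WT diestrus. It fell at estrus by 2.04 log2 in HIF2A cKO (limma adjusted p = 2.1e-06) and 0.88 log2 in WT (limma adjusted p = 0.0017). Tnfaip3, a brake on inflammatory signalling, rose by 1.95 and 1.26 log2. Of 34 tested other interferon-induced genes 19 rose and 1 fell in HIF2A cKO, and 9 rose and 3 fell in WT; Tnfsf10, a death ligand, rose by 1.42 and 1.25 log2, Sp100, a nuclear body protein, by 1.24 log2 in HIF2A cKO, and Ifi204 fell by 1.02 and 1.41 log2.

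At diestrus most members had lower means in HIF2A cKO than in WT, and few passed the test. Of the 40 members 31 had negative and 9 positive differences of HIF2A cKO minus WT, with a median of -0.22 log2 against 0.02 log2 over all genes. The median was -0.10 log2 without WT diestrus replicate 3 and -0.14 log2 without HIF2A cKO diestrus replicate 2. Ifit1, Ifit2, Xaf1 and Parp9 were lower and Bst2 was higher, so 4 of 40 were lower where 10% of all genes were lower, and 1 of 40 higher where 13.8% were higher; the share of members lower was at the background. The libraries of the genotypes did not overlap for 7 members: Bst2 was higher (8.8% of all genes higher) and Ifih1, Ifit1, Ifit2, Mx2, Isg15 and Parp9 were lower (6.96% lower).

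Bst2 held the largest difference, with 179.6 to 269.7 FPKM in the 4 HIF2A cKO libraries against 88.6 to 166 FPKM in the 4 WT libraries, a mean 2.02 times higher in HIF2A cKO (1.03 log2, SE 0.19, limma adjusted p = 0.0048). Ifit2 was at 0.49 times its WT mean (-0.81 log2, SE 0.15, limma adjusted p = 0.0052) and Ifit1 at 0.35 times (-0.87 log2, SE 0.27, limma adjusted p = 0.036). Xaf1 differed by -0.74 log2 (SE 0.22, limma adjusted p = 0.030), with overlapping libraries because HIF2A cKO diestrus replicate 3, at 12.5 FPKM, reached the WT range. Parp9 was 10.1, 9.73, 12.3 and 10.5 FPKM in HIF2A cKO diestrus against 13.0, 13.9, 16.1 and 12.6 FPKM in WT diestrus (-0.36 log2, SE 0.09, limma adjusted p = 0.017).

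Bst2 and Ifit2 passed under each alternative setting tried. The call of Ifit1 ended without HIF2A cKO diestrus replicates 1, 2 or 4, without WT diestrus replicates 1, 3 or 4, and under other settings (limma adjusted p up to 0.101). That of Xaf1 ended without HIF2A cKO diestrus replicates 1, 2 or 4 and without WT diestrus replicates 3 or 4 (up to 0.103). It also ended with no filter, with the compared libraries alone and without the 2 libraries highest in 45S signal. That of Parp9 ended without HIF2A cKO diestrus replicates 1 or 2 and with the compared libraries alone (up to 0.070).

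Between same-numbered diestrus libraries of the 2 genotypes, deviations from the group mean over all genes correlated at 0.321, 0.115, 0.622 and 0.217, in number order. Number 3 was the highest, and differently numbered libraries were not compared. A fit with the replicate number as a block called 10 of 40 members lower, where it called 14.7% of all genes lower and 18.8% higher: Ifit1, Ifit2, Xaf1, Parp9, Ddx58, Ifih1, Oasl2 and the GTPases Gbp3, Igtp and Iigp1. Bst2 remained higher. Within same-numbered pairs 18 of 40 members were lower in HIF2A cKO in all 4 pairs, 7 in 3, 7 in 2, 6 in 1, and 2, Bst2 and Oas1g, in none. The members share these libraries and the same share over all genes was not computed, so these pair counts have no baseline. Gbp3 was 4.08, 3.51, 9.79 and 4.47 FPKM in HIF2A cKO diestrus against 6.64, 7.98, 15.0 and 7.31 FPKM in WT diestrus, lower in each numbered pair while the groups overlapped through library 3 (-0.69 log2; limma adjusted p = 0.0077 with the block and 0.101 without).

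**Figure D4:**
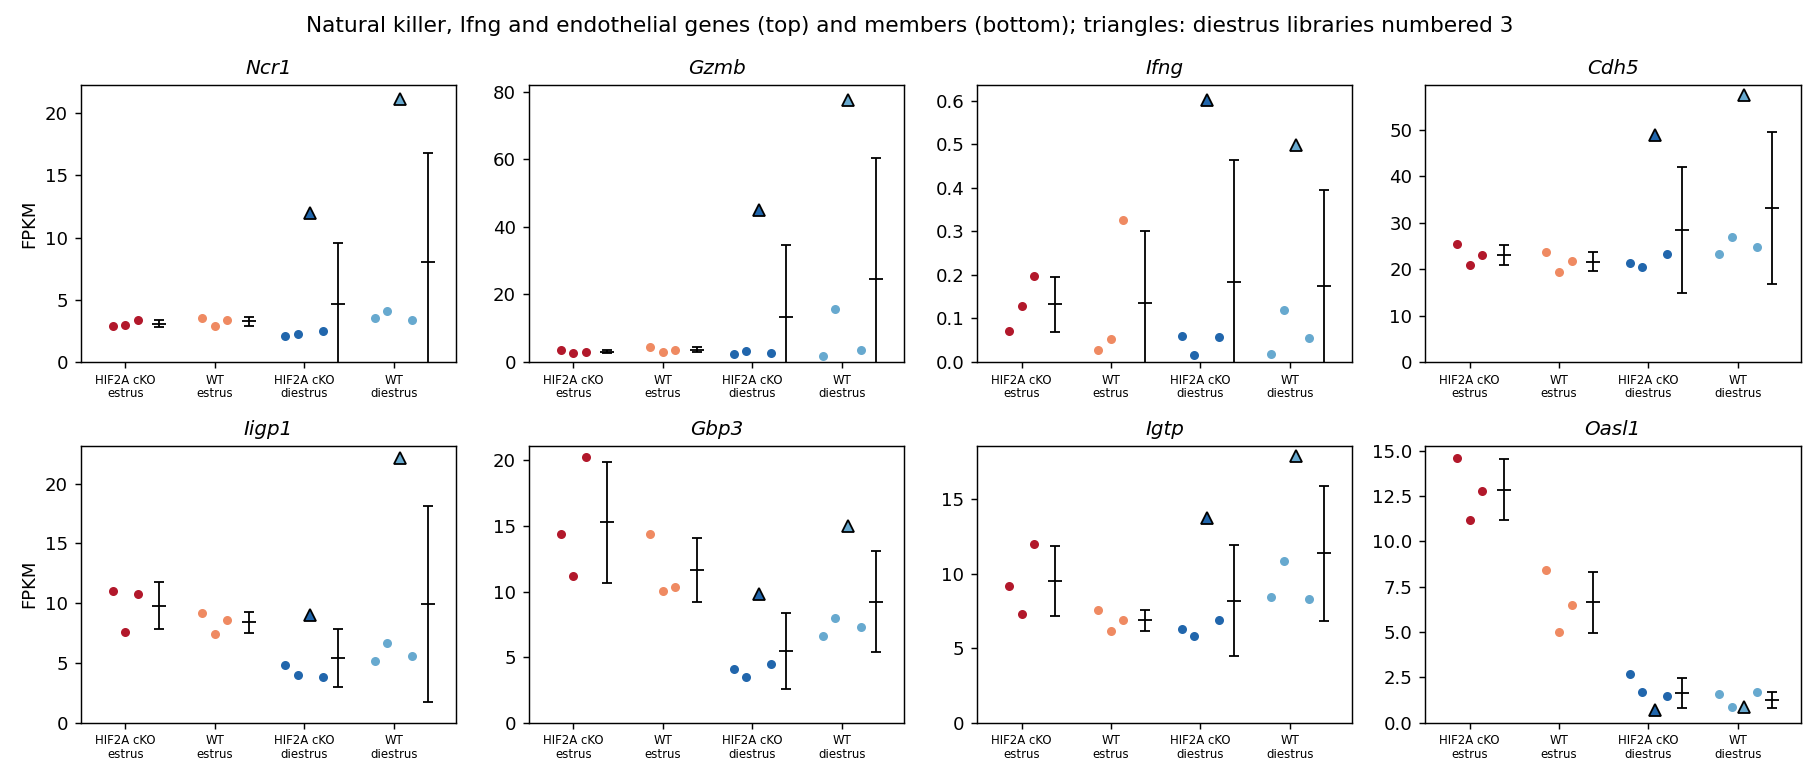
Points are FPKM by library for the natural killer genes Ncr1 and Gzmb, for Ifng and for the endothelial gene Cdh5 (top), and for 3 GTPases and Oasl1 (bottom), in the order HIF2A cKO estrus, WT estrus, HIF2A cKO diestrus and WT diestrus; black bars are mean and SD, drawn from 0 upward. Triangles mark the diestrus libraries numbered 3, which are highest of their group for the 4 upper genes and the GTPases and low for Oasl1.

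Part of the list was high in the diestrus libraries numbered 3. In them the median ratio of the GTPases to the other diestrus libraries of the genotype was 2.18 in HIF2A cKO and 2.05 in WT, while that of the 2-5A synthetases was 0.65 and 0.92. Iigp1 reached 22.2 FPKM in WT diestrus replicate 3, against 5.16, 6.71 and 5.58 FPKM in the other WT diestrus libraries. HIF2A cKO diestrus replicate 3 was the highest of its group for 26 of 40 members and WT diestrus replicate 3 for 34 of 40. The same libraries held 12.0 and 21.2 FPKM of Ncr1, 45.1 and 77.6 FPKM of Gzmb, a granule protease of killer cells, and 0.601 and 0.499 FPKM of Ifng in HIF2A cKO and WT. Summed T and natural killer markers ran from 7.29 to 69.8 FPKM in HIF2A cKO diestrus and from 8.83 to 121 FPKM in WT diestrus, with library 3 at the top of both. Epithelial sums were lowest and stromal sums highest in library 3 of both groups. The part of these markers in the GTPase levels was not tested. Without both libraries, 6 of 40 members were lower in HIF2A cKO at diestrus (Ddx58, Gbp3, Ifit2, Igtp, Parp9 and Xaf1). This share was near the 14.3% of all genes lower in that fit, and Bst2 was higher.

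Socs1 was also higher in HIF2A cKO at diestrus, by 1.23 log2 (limma adjusted p = 0.0025), as were the adaptors Ticam1 and Mavs (0.39 and 0.30 log2) and Irf4 (0.53 log2). Of the other interferon-induced genes outside the 40, 3 of 34 were lower, Gbp7, Cxcl10 and Nmi (-0.65, -0.61 and -0.32 log2), and none was higher. The share lower was near the 10% of all genes lower, and 13.8% of all genes were higher. The call of Socs1 passed under each alternative tried. Those of Ticam1, Mavs and Irf4 ended without HIF2A cKO diestrus replicates 1 or 2 or WT diestrus replicate 3, and for Ticam1 and Irf4 also without WT diestrus replicates 1 or 4 (limma adjusted p up to 0.116). On leaving out 1 library, that of Cxcl10 held without HIF2A cKO estrus replicates 1 or 4, HIF2A cKO diestrus replicate 3 or WT diestrus replicate 4 and ended without any other, and that of Gbp7 held without HIF2A cKO diestrus replicate 3 or WT diestrus replicate 1 and ended without any other (limma adjusted p up to 0.145). Both held with the replicate block over all libraries, with library weights and without both diestrus libraries numbered 3, and ended with the compared libraries alone. That of Nmi held on leaving out any 1 library and ended with the compared libraries alone (limma adjusted p = 0.056). Summed macrophage markers were 66.5 to 98.4 FPKM in HIF2A cKO diestrus against 97.8 to 117 FPKM in WT diestrus, with 0 of 7 tested markers past the limma threshold and 3 at an unadjusted p under 0.05. Csf1r was lower in HIF2A cKO at diestrus with the replicate block (-0.34 log2, limma adjusted p = 0.030) and without both libraries numbered 3 (-0.38 log2, limma adjusted p = 0.042). The part of macrophage markers in the lower members was not tested. Summed epithelial markers were 409 to 878 FPKM in HIF2A cKO diestrus against 342 to 558 FPKM in WT diestrus, with 1 of 7 higher; their part in the higher Bst2 was not tested.

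At estrus all 40 members had higher means in HIF2A cKO than in WT, and none passed the test across genes. The median difference was 0.36 log2, against 0.01 log2 over all genes. In limma 0 of 40 members were called, where 0.07% of all genes were higher and 0.035% lower. At an unadjusted p under 0.05 there were 11, all higher, where 7.37% of all genes lay under it in either direction, and the smallest adjusted p was 0.232, for Mx1. Mx1 was 5.07, 2.96 and 4.53 FPKM in HIF2A cKO estrus against 2.49, 1.20 and 1.64 FPKM in WT estrus (0.91 log2, SE 0.22), without overlap. Libraries of the genotypes did not overlap for 6 members, all higher: Irf1, Oasl1, Mx1, Bst2, Gbp2 and Xaf1 (14.4% of all genes did not overlap in this direction and 12% in the other). The members share these libraries, and without HIF2A cKO estrus replicate 4, the highest for 37 members, the median was 0.20 log2.

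Other fits gave other counts at estrus. With library weights 12 of 40 members were higher, where 5.29% of all genes were higher and 4.03% lower, among them Irf7, Oas2, Oas3, Oasl1, Ifit3, Mx1, Mx2, Bst2 and Ifi44. A fit on the estrus libraries alone called 1 (1.33% of all genes higher), and with the replicate number as a block it called 2, Mx1 and Oasl1 (0.546% higher), though same-numbered estrus libraries did not deviate together. Over all genes 10 of 15 calls were higher, and 13 of 23 after quantile normalization.

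The cycle change itself was larger in HIF2A cKO in 39 of 40 members, Bst2 being the exception, and no difference of the cycle changes passed the test. The median of the difference, with the WT change taken from the HIF2A cKO change, was 0.62 log2, against -0.01 log2 over all genes. In limma 0 of 40 members were called, where 0.014% of all genes were higher and 0.021% lower, with 16 at an unadjusted p under 0.05, as were 17.6% of all genes. The smallest adjusted p was 0.121, for Ifit2 (0.91 log2, SE 0.23), whose diestrus and not estrus levels differed between the genotypes. The largest estimate was of Ifit1 (1.34 log2, SE 0.42, limma adjusted p = 0.160), followed by Isg15 (1.14 log2, SE 0.53, limma adjusted p = 0.284), Ifit3 (1.12 log2, SE 0.33, 0.150) and Xaf1 (1.11 log2, SE 0.34, 0.154). So the 10 members called over the cycle in HIF2A cKO and not in WT (Irf9, Stat2, Ddx58, Rsad2, Cmpk2, Isg15, Gbp2, Gbp3, Ifi27 and Xaf1) are not shown to differ between the genotypes, and Irf9, Ddx58, Gbp2, Gbp3 and Ifi27 were called in WT too without both diestrus libraries numbered 3. For those called in WT too, WT diestrus replicate 3 held the highest WT diestrus value, so leaving it out raises the difference by construction.

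This result turned on the fit. With the replicate block 6 of 40 members had a larger cycle change in HIF2A cKO, where 1.62% of all genes had a larger and 1.61% a smaller one: Gbp3, Ifit2, Igtp, Mx2, Parp9 and Xaf1 (limma adjusted p = 0.022 for Xaf1 to 0.049 for Igtp). The estrus libraries in that fit carry numbers that did not pair them. Without HIF2A cKO diestrus replicate 3 there were 5 (3.73% of all genes larger and 4.57% smaller), and without both diestrus libraries numbered 3 also 5, where 4.05% of all genes were larger and 4.45% smaller (Gbp3, Ifit2, Igtp, Parp9 and Xaf1). With library weights 20 were larger in HIF2A cKO and 1, Bst2, smaller, where 16.4% of all genes were larger and 20.2% smaller. Without HIF2A cKO estrus replicate 4 the median was 0.46 log2.

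**Figure D5:**
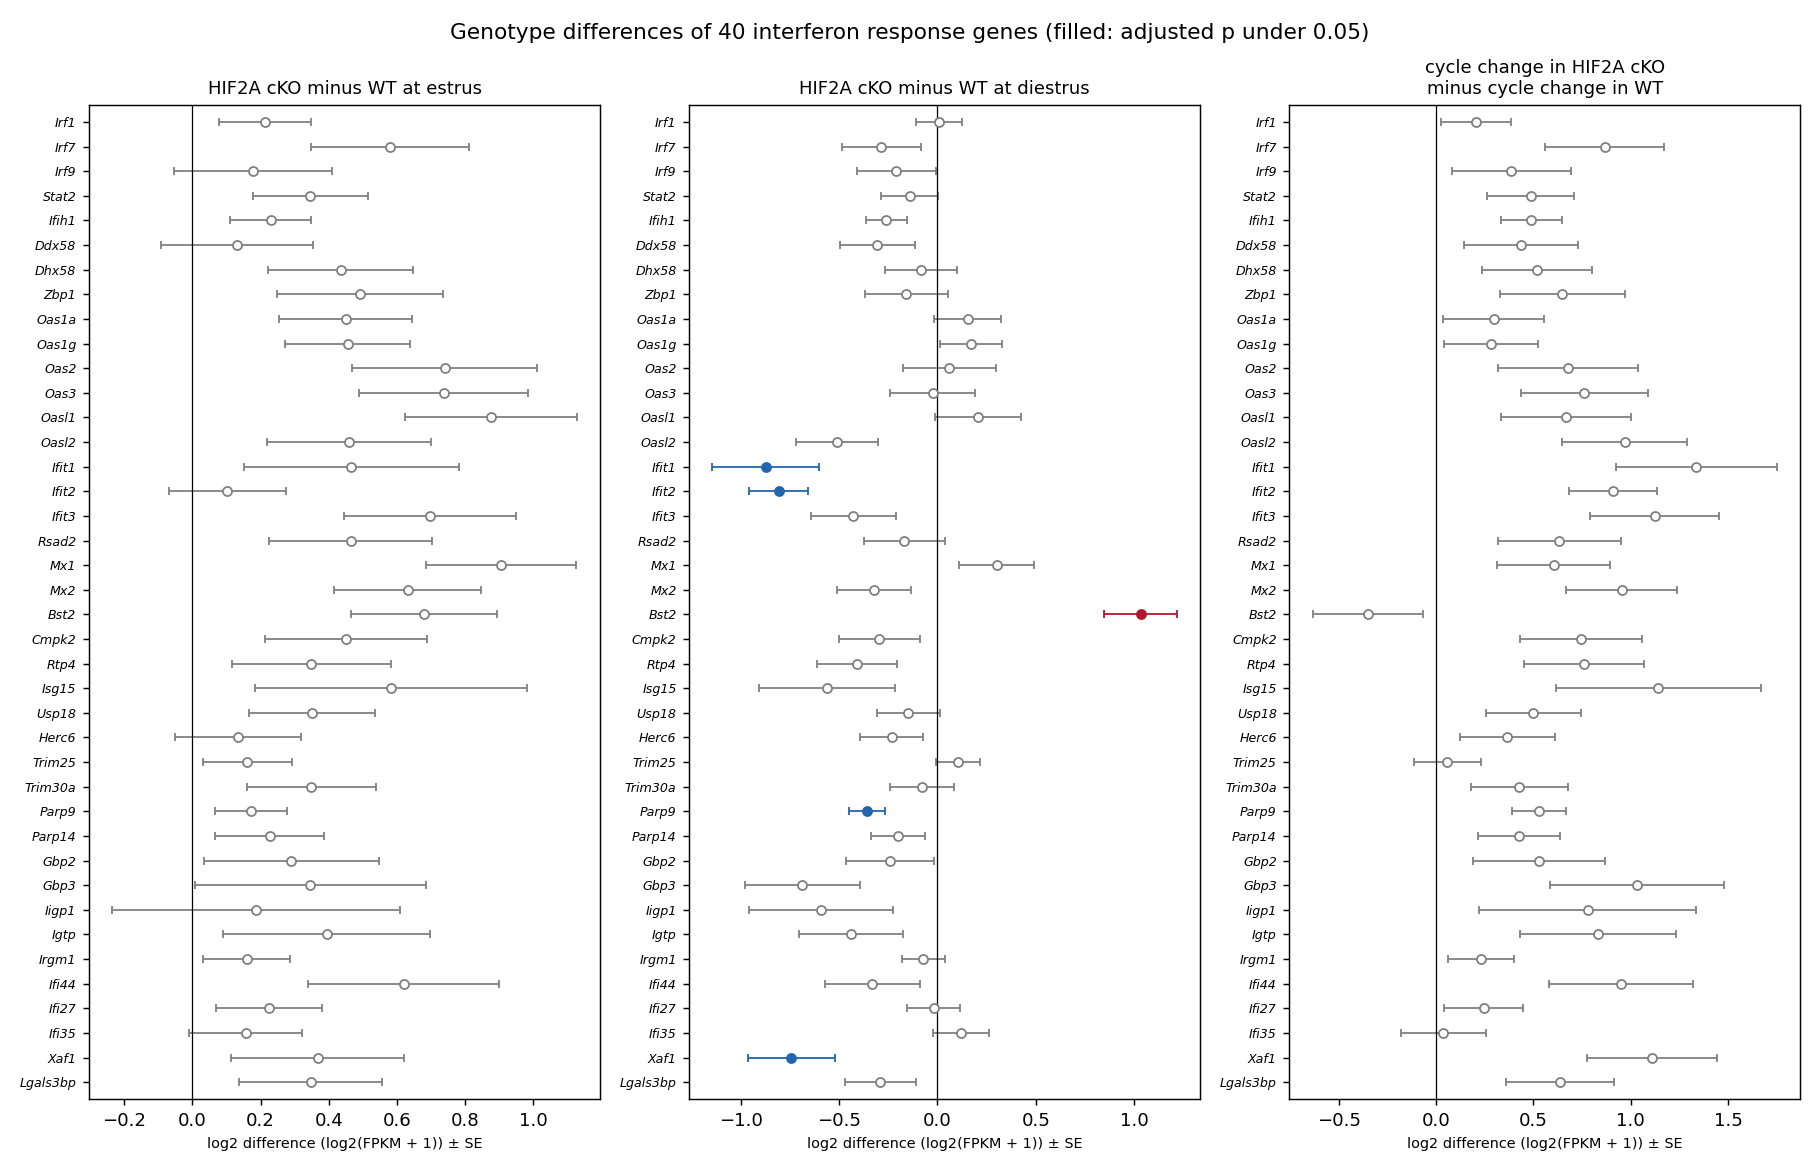
Points give, for each member, HIF2A cKO minus WT at estrus (left), HIF2A cKO minus WT at diestrus (middle) and the difference between the 2 cycle changes, HIF2A cKO less WT (right), on the log2(FPKM + 1) scale with standard errors; filled points passed an adjusted p of 0.05. The left panel lies wholly to the right of 0 with no filled point, the middle panel has Bst2 filled at 1.03 log2 and Ifit1, Ifit2, Xaf1 and Parp9 filled below 0, and the right panel has no filled point.

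Some values carry a limit of mapping or of gene overlap. Whether the authors' counting used strand is not stated, and exons overlap those of another gene for Irf1 (Gm17334), Irf7 (Phrf1), Irf9 (Rnf31), Parp9 (Dtx3l) and Igtp (Irgm2), so reads there cannot be told apart. Herc6 and Rtp4 share 12.5% and 11.6% of their 50-base stretches with other genes, Trim30a 5.98%, Mx2 4.38%, Isg15 3.96%, Mx1 3.91%, Gbp3 3.75% and Gbp2 2.03%.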

How the data were processed

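Total RNA of mouse uterus was purified on columns with DNase treatment and made into libraries with an Illumina TruSeq kit, per the labels' protocols. The authors deposited FPKM per gene symbol, 1 column per library; TopHat2 2.0.4, Cufflinks 2.0.2 and mm10 are named in the submitters' processing notes, and their options, annotation and strand setting are not stated in the labels. FPKM keeps no counts; the depth is known only as a ratio between libraries (1 to 1.89, from the step size of low values).

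Libraries were grouped by the labels' genotype and stage. log2(FPKM + 1) was fitted with limma 3.58.1 in R 4.3.3: 4 group means over 14 libraries, 14278 genes (1 FPKM or more in 3 or more libraries), trended empirical Bayes, and Benjamini-Hochberg adjustment over all genes at 0.05. Before the fit 11 genes listed at 0 throughout 1 group and averaging at least 50 FPKM in another were left out; no member was among them. The fit was tested on simulated data. Gene models and shared 50-base stretches come from GENCODE M21 and promoters from RefSeq (GRCm38.p6).

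All members are named. Values in every library are given for up to 6 called members with the largest differences in each comparison, and for Irf1, Irf7, Irf9, Stat2, Isg15 and Epas1. Those of the libraries compared are given for a few others chosen after their values were seen (Igtp, Gbp3, Mx1, Csf1r, Ifne, Socs1). Other genes come from pathway lists, with the 2 largest called changes of each, and from marker lists. Marker lists are given as sums and counts, with a few single genes not chosen by the size of their change. Jak1, Irf3 and the genes of the libraries that stand apart were added to these. The members and lists were chosen with earlier results of these data known. Same-numbered libraries had residual correlations of 0.321, 0.115, 0.622 and 0.217 at diestrus, and of 0.08, 0.096 and -0.047 at estrus; the labels give the numbers and not their meaning. Alternatives were another pseudocount (0.1), no filter, a filter of 5 FPKM, other scalings (median of ratios, quantile), fits on the compared libraries alone, library weights, the block, leaving out each library, and leaving out the libraries that stand apart.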

Additional observations from a re-analysis of the deposited data

Results flagged for a closer look

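In groups of 4 libraries, a value was singled out when its gap to the next was most of the group's range; chance does this in about 1 in 20 groups. Of 80 gene and group combinations of the members 12 were singled out, and all 12 were high values in a diestrus library numbered 3. The members share these libraries and are not independent, and the share of all genes singled out was not computed. The 1 in 20 is therefore no baseline for the 12. In WT diestrus replicate 3 these were Iigp1 at 22.2 FPKM, Irgm1 at 21.2 FPKM, Trim25 at 21.2 FPKM, Ddx58 at 16.6 FPKM, Gbp3 at 15.0 FPKM, Stat2 at 12.3 FPKM, Parp14 at 11.6 FPKM and Zbp1 at 4.37 FPKM. In HIF2A cKO diestrus replicate 3 they were Irf9 at 18.9 FPKM, Igtp at 13.7 FPKM, Ddx58 at 12.6 FPKM and Gbp3 at 9.79 FPKM.

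The same 2 libraries stood out for genes outside the members. HIF2A cKO diestrus replicate 3 was far above its group for Gzmb (45.1 FPKM), Prf1 (9.88 FPKM) and Ncr1 (12.0 FPKM) of cytotoxic lymphocytes, for Ifng (0.601 FPKM), for the leukocyte gene Coro1a (38.8 FPKM) and for the endothelial gene Cdh5 (48.9 FPKM). WT diestrus replicate 3 was far above its group for Prf1 (18.6 FPKM), Ncr1 (21.2 FPKM), the leukocyte genes Ptprc (16.1 FPKM) and Coro1a (41.2 FPKM), Cdh5 (57.6 FPKM) and Epas1 (43.5 FPKM). What these libraries share beyond a number was not tested.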

How the results depend on the processing

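No member called in any comparison changed direction under any alternative. Of the members called, 29 of 35 over the cycle in HIF2A cKO, 22 of 25 in WT and 2 of 5 between genotypes at diestrus passed under every alternative. Leaving out 1 library gave 29 to 36 members higher at estrus in HIF2A cKO and 0 to 1 lower (Ifi35), 22 to 27 higher in WT and 0 to 1 lower (Igtp, -0.59 log2, limma adjusted p = 0.035 without HIF2A cKO diestrus replicate 3), 1 to 7 lower at diestrus, and 0 to 5 larger cycle changes in HIF2A cKO. Of all genes 22.3% to 26.7% were higher at estrus in HIF2A cKO in these fits, and 19.6% to 24.3% in WT. At diestrus 4.17% to 15.2% of all genes were lower in HIF2A cKO, and 0% to 3.73% had a larger cycle change. With library weights 1 member, Bst2, was lower at estrus in HIF2A cKO (42.4% of all genes lower). Between genotypes at diestrus that fit called 3 higher and 8 lower in HIF2A cKO, where 30.3% of all genes were higher and 24.9% lower. Between genotypes at estrus it called 12 higher (5.29% of all genes). It called 20 cycle changes larger and 1 smaller (16.4% and 20.2% of all genes). At diestrus 2 were lower with no filter, with the compared libraries alone and with both libraries highest in 45S signal left out. Of all genes 5.56%, 1.09% and 9.62% were lower in these fits. The replicate block gave 10 lower at diestrus (14.7% of all genes lower) and 6 larger cycle changes (1.62% larger). On the compared libraries alone it gave 9 lower at diestrus (5.86% lower). It gave 38 and 30 members higher at estrus in HIF2A cKO and WT, where 28.3% and 25.5% of all genes were higher. Between genotypes at estrus the compared libraries alone gave 1 higher (1.33% of all genes), and 2 with the block (0.546%). Without both diestrus libraries numbered 3 there were 5 larger cycle changes (4.05% of all genes). Stat2 over the cycle in WT, which was not called at -0.06 log2, changed sign: 0.0147 log2 with median-of-ratios scaling, 0.0656 with weights, 0.0416 with the block, -0.113 to 0.0890 on leaving out 1 library (highest without WT diestrus replicate 3), and 0.0890 without both libraries numbered 3. The causes were not tested. FPKM carry no depth per value, so low members such as Oas3 have unknown counting error.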
